A study of Mus musculus with 9 samples.

Results

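Whole E15.5 kidneys with stromal deletion of *Ntn1* were compared with kidneys that carried no Cre, over the 6 libraries of these genotypes among the 9 in the series. The question was how the kidney's RNA differs, gene by gene and compartment by compartment, when the stromal progenitors lose this secreted ligand. Of 24138 loci in the deposited table, 10096 entered the comparison because their mean reached 5 FPKM in MUT or WT, the genotypes defined below. FPKM (fragments per kilobase of transcript, scaled to library size) is a level per length. Values lie close together on both sides of this minimum, with 5.001 for *Acsm2* just inside and 4.997 for 2310030G06Rik just outside.

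The MUT group was *Foxd1GC/+;Ntn1fl/fl*, 3 libraries. *Foxd1GC* places a GFP-Cre at *Foxd1*, so that 1 *Foxd1* allele is lost and both floxed *Ntn1* alleles can be deleted in Foxd1-expressing stromal progenitors and their descendants. The WT group was *Ntn1fl/fl*, 3 libraries: both of its *Ntn1* alleles were floxed, but there was no Cre and both *Foxd1* alleles were present. The 3 HET libraries (*Foxd1GC/+;Ntn1fl/+*), which carry the same Cre and 1 floxed *Ntn1* allele, are given beside them as values only. MUT and WT therefore differ both in the Cre allele with its lost *Foxd1* copy and in *Ntn1*, and these cannot be told apart in this comparison. All kidneys came from 3 crosses of the same kind on a C57Bl6/J background, all were taken at E15.5, and the stroma was not separated from the other cells.

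Netrin 1 is a secreted, laminin-related protein that steers axons and vessels through receptors of the Unc5 and Dcc families. In the developing kidney, Foxd1-expressing stroma surrounds the nephron progenitors and gives rise to interstitial fibroblasts, pericytes, mesangial cells and the renin cells of the arterioles. Renin-producing cells are at this stage spread along the growing arteries, and the proximal tubule is only beginning to acquire its transporters.

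*Ntn1* (chromosome 11, 68209364 to 68386826, mm10) measured 26.1 FPKM in WT-1, 28.9 in WT-2 and 17.8 in WT-3, against 10.8, 16.5 and 11.04 FPKM in the MUT libraries 1 to 3. All 3 MUT libraries lay below all 3 WT libraries, although WT-3 (17.8) and MUT-2 (16.5) were nearly level. The HET libraries, at 12.3, 12.02 and 16.5 FPKM, lay in the same range as MUT. The mean was 12.8 ± 3.22 (SD, n = 3) in MUT and 24.3 ± 5.75 in WT, a ratio of 0.526. The log2 fold change was -0.87 (SE 0.20), and the limma test with Benjamini-Hochberg adjustment over all loci gave an adjusted p of 0.9998, so the difference did not pass. Fold changes here are on the log2(FPKM + 1) scale, on which genes with few FPKM appear to change less than they do. The FPKM covers the whole locus in whole kidney, so transcript from a deleted allele and from cells outside the stroma counts as well.

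*Foxd1* (chromosome 13, 98354245 to 98356705), the transcription factor of the stromal progenitors and the site of the Cre, measured 33.7, 33.4 and 25.8 FPKM in WT and 24.8, 22.5 and 24.3 FPKM in MUT. The groups did not overlap, with WT-3 again the WT library nearest to MUT. In HET it was 21.7, 20.2 and 21.5 FPKM, below every library of both other groups. The log2 fold change between MUT and WT was -0.35 (SE 0.13).

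**Figure D1:**
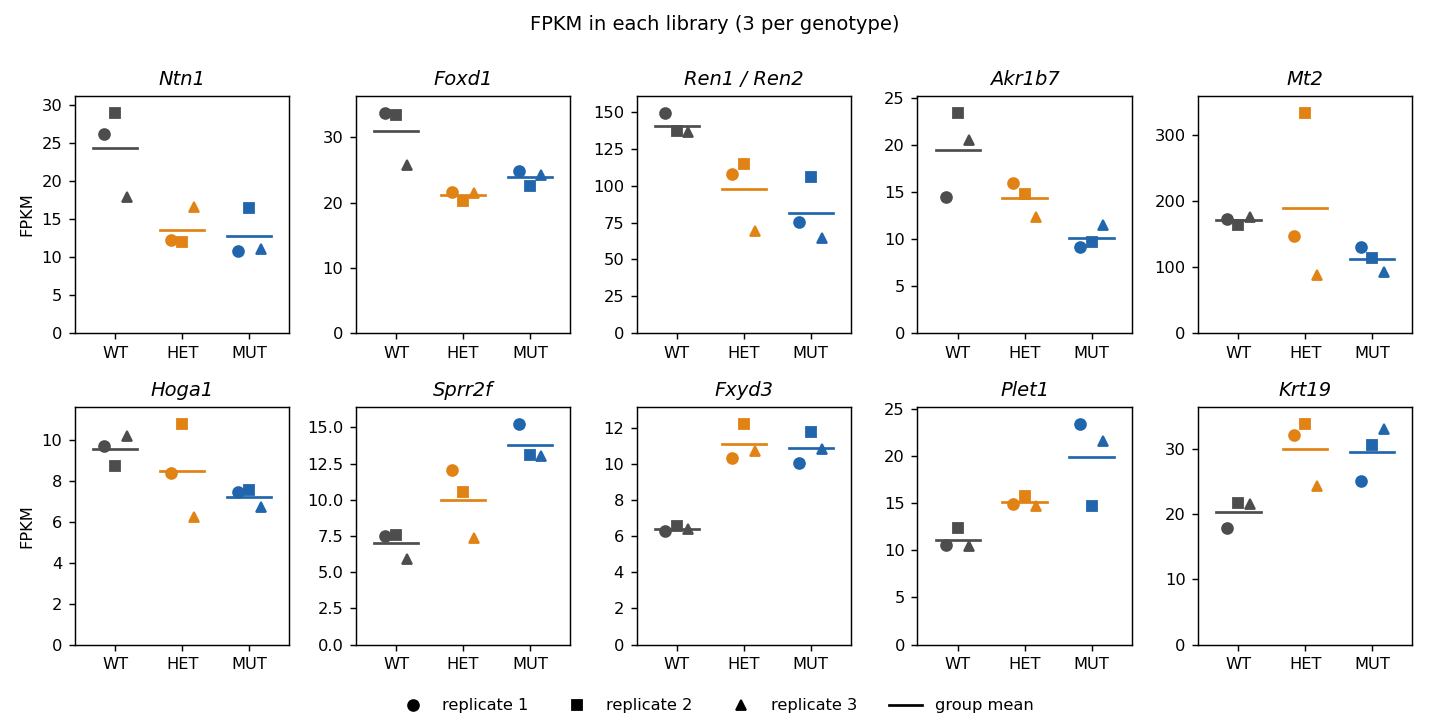
FPKM (linear axes from 0) of 10 loci in each WT, HET and MUT library; marker shapes give the replicate number and lines the group means. For all 10 loci the 3 MUT libraries lie on one side of the 3 WT libraries. Apart from *Ntn1* and *Foxd1*, the loci shown were chosen from those without overlap. For *Mt2* 1 HET library lies far above the rest at 333 FPKM.

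The 6 libraries did not group by genotype over all loci. The median absolute log2 difference between MUT-1 and WT-1 was 0.050, and that between MUT-3 and WT-2 was 0.053. All other pairs among the 6 libraries, those within a genotype included, differed by 0.152 to 0.280. Neither the labels nor the study's methods say which library came from which of the 3 crosses or name another batch. The part of litter or batch in this was not tested. Across loci, deviations from the group mean correlated with log2 transcript length at 0.43 in WT-1 and 0.48 in MUT-1. The values were -0.36 in WT-2 and -0.35 in MUT-3, against -0.0048 in WT-3 and -0.094 in MUT-2. With GC content they were -0.46 in WT-3, -0.18 in MUT-2 and 0.017 to 0.25 in the others. The part of length and GC content in the closeness of the pairs was not tested. *Xist*, the RNA of the inactive X chromosome, measured 173 FPKM in MUT-1 and at most 0.038 in the other 5 libraries, while the Y-linked *Eif2s3y* was 0.0069 in MUT-1 and 17.4 to 29.0 in those 5. MUT-1 thus differed from the rest of both groups in sex-linked expression. Summed FPKM per library ranged from 453753 (WT-1) to 545598 (WT-2). The FPKM values carry no read numbers, so depth is unknown. Precision rests on 3 libraries per group, and limma moderates each SE by the spread of other loci.

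**Figure D2:**
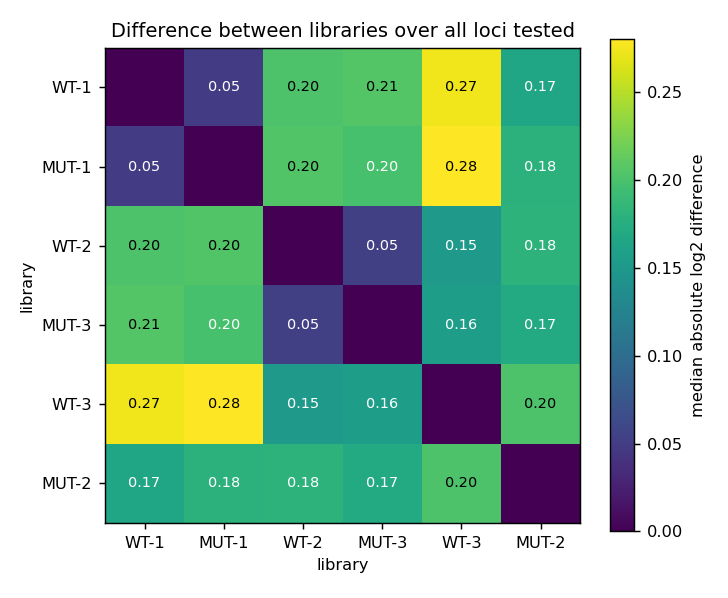
Median absolute difference of log2(FPKM + 1) between each pair of the 6 libraries over the 10096 loci tested (colour and printed value). The lowest values join WT-1 with MUT-1 and WT-2 with MUT-3, both at 0.05, across genotypes.

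Over the 10096 loci, 0 passed an adjusted p of 0.05 (limma, two-sided, 0% of the loci), with 0.561 the smallest. Without adjustment, p was under 0.05 for 31 loci with higher values in MUT (0.307%) and for 34 with lower values (0.337%), or 84 and 54 after correction for GC content and transcript length. With 1 library left out, these counts were 209 and 168 without WT-1 and 22 and 14 without WT-3. Without MUT-1 they were 88 and 55, without MUT-2 30 and 96, without MUT-3 82 and 97, and without WT-2 39 and 100. When WT-1 was left out, 3 loci passed, *Sprr1a* (log2 fold change 1.32), *Akr1b7* (-1.05) and the small RNA locus *Snora3*. Without WT-2 or without MUT-2, 1 small RNA locus passed each. Without both WT-2 and MUT-3, 32 passed, most of them small RNA or sex-linked loci, and the others included *Sprr1a*, *Sprr2f*, *Sprr2g* and *Spink8*. All 3 MUT libraries lay above all 3 WT libraries for 133 loci (1.32%), and below them for 135 (1.34%). Where known, the median GC content was 54.8% in the 133, 49.6% in the 135 and 49.8% in all loci tested. An exact permutation test of 3 libraries against 3 cannot give a p under 0.1 (two-sided), which is its value for each of these 268 loci. With interchangeable libraries, a share of 0.1 of loci is without overlap on average, and here it was 2.65%. In that case 5% of loci on average also have an unadjusted limma p under 0.05, against the 0.307% and 0.337% above. The loci with a positive log2 fold change were 4912 (48.7%), the median log2 fold change was -0.0035, and 5% of loci lay below -0.20 and 5% above 0.19. The median standard error was 0.14. No named locus below passed the adjusted threshold, so every difference is given as a measured value that did not pass, and adjusted p was 0.957 or more except for *Sprr2f*.

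**Figure D3:**
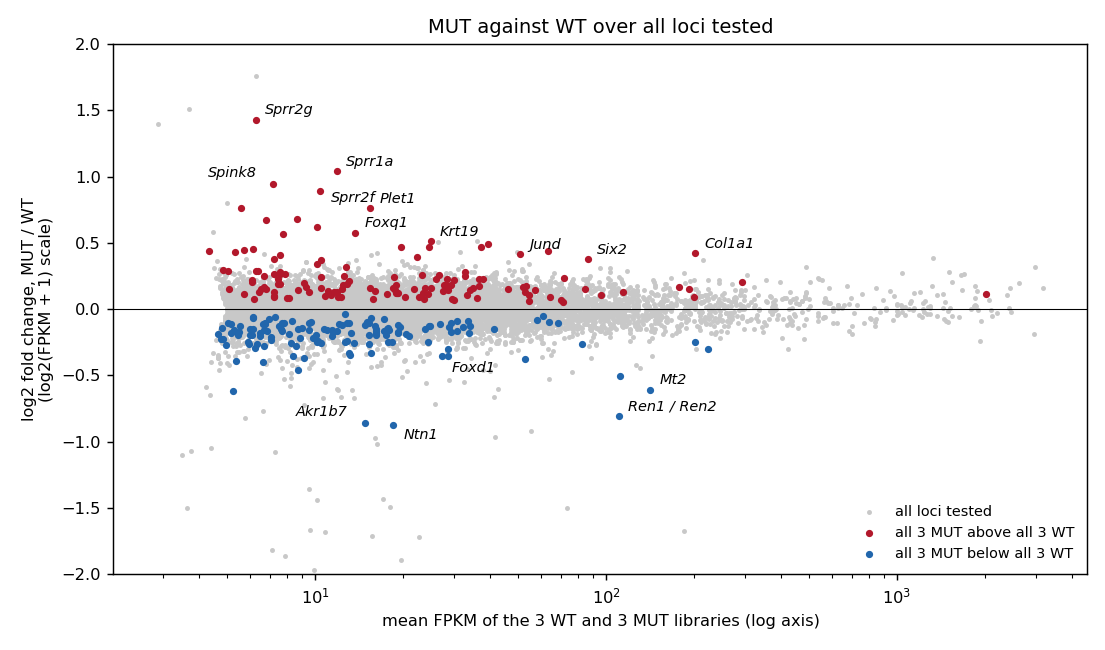
Log2 fold change of MUT over WT against the mean FPKM of the 6 libraries (log axis) for the 10096 loci tested; 20 loci lie outside the axis limits of 2. Red points are the 133 loci with all MUT above all WT and blue points the 135 with all MUT below, and the named epithelial and renin genes lie at the outer edge of the cloud for their level.

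The 133 loci with all MUT above all WT were ranked by p. Lack of overlap is therefore part of how the loci below were chosen. The 10 with the smallest p were *Sprr2f*, *Fxyd3*, *Sprr2g*, *Pllp*, *Plet1*, *Ctse*, *Spink8*, *Sprr1a*, *Foxq1* and *Krt19*. Of them, *Sprr2g*, *Pllp*, *Ctse* and *Spink8* had a WT mean under 5 FPKM and entered the comparison through MUT alone. *Sprr2f* (chromosome 3, 92365187 to 92366442), a small proline-rich protein of the cornified envelope, measured 7.51, 7.59 and 5.90 FPKM in WT and 15.2, 13.1 and 13.04 FPKM in MUT. The lowest MUT library was at 13.04, and no WT library exceeded 7.59. Its HET values were 12.04, 10.6 and 7.37 FPKM. The log2 fold change was 0.89 (SE 0.13, limma adjusted p = 0.561).

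A further pair of genes of the same cluster on chromosome 3 were among the 10. *Sprr2g* measured 2.205, 4.26 and 2.27 FPKM in WT and 11.4, 6.08 and 11.3 FPKM in MUT, with a log2 fold change of 1.43 (SE 0.26). *Sprr1a* measured 11.2, 7.22 and 4.64 FPKM in WT and 16.6, 18.8 and 13.1 FPKM in MUT, with a log2 fold change of 1.04 (SE 0.25). In HET, *Sprr2g* (5.05 to 6.65 FPKM) lay above every WT library, while *Sprr1a* (7.11 to 15.1 FPKM) overlapped WT. The Sprr2 genes are close paralogs, so reads may be split between them and the value of each single member is uncertain.

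*Fxyd3* (chromosome 7, 31059935 to 31076697), a small membrane protein that regulates the sodium pump, had the tightest groups of the 10. Its FPKM was 6.29, 6.56 and 6.41 in WT, 10.3, 12.2 and 10.7 in HET, and 10.1, 11.8 and 10.8 in MUT. HET and MUT occupied the same range, and the lowest library of either stood at 10.1. The log2 fold change of MUT over WT was 0.68 (SE 0.12).

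*Plet1* (chromosome 9, 50488799 to 50505639), a surface protein of epithelial progenitors, measured 10.6, 12.3 and 10.5 FPKM in WT, 14.9, 15.8 and 14.7 FPKM in HET, and 23.3, 14.7 and 21.6 FPKM in MUT. MUT-2 was the low library and stood level with HET. *Krt19* (chromosome 11, 100140811 to 100145919), a keratin of ducts such as the collecting duct, measured 18.0, 21.7 and 21.5 FPKM in WT and 25.1, 30.6 and 33.1 FPKM in MUT, with 24.4 to 33.8 FPKM in HET. Both HET and MUT lay wholly above WT. *Foxq1*, a forkhead transcription factor, measured 13.1, 9.75 and 9.82 FPKM in WT and 16.7, 17.9 and 15.2 FPKM in MUT, whereas HET (10.3 to 13.1 FPKM) overlapped WT.

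The remaining loci of the 10 had lower levels. *Pllp*, a membrane lipid-raft protein, was 3.63 to 4.21 FPKM in WT and 6.47 to 7.97 FPKM in MUT. *Ctse*, the aspartic protease cathepsin E, was 4.50 to 5.45 FPKM in WT and 7.67 to 10.1 FPKM in MUT. *Spink8*, a serine protease inhibitor, was 3.23 to 6.87 FPKM in WT and 8.23 to 11.1 FPKM in MUT. Their log2 fold changes were 0.76 (SE 0.15), 0.67 (SE 0.15) and 0.94 (SE 0.22), in that order. For *Pllp* and *Ctse* the HET libraries lay wholly between both other groups, at 4.46 to 6.07 and 6.04 to 6.86 FPKM.

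The loci with lower values were ranked by p in the same way, within the 135 with all MUT below all WT. Among the 10 with the smallest p were *Ntn1* and a renin-cell pair. The renin locus (chromosome 1, 133350566 to 133360323), which the table lists under *Ren1* and *Ren2* together, encodes the protease that starts the angiotensin cascade. It measured 149, 137 and 136 FPKM in WT and 75.2, 106 and 64.3 FPKM in MUT. WT was tight, and MUT-2 was the MUT library nearest to it. In HET it was 108, 115 and 69.4 FPKM, also below every WT library. The means were 81.7 ± 21.4 (SD, n = 3) in MUT and 141 ± 7.26 in WT, with a log2 fold change of -0.81 (SE 0.18). *Ren1* and *Ren2* are near-identical copies and cannot be separated in this value. In whole kidney, fewer cells of a type and less RNA per cell cannot be told apart, here and for every compartment gene that follows.

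*Akr1b7* (chromosome 6, 34412362 to 34423137), an aldo-keto reductase known as a marker of renin-lineage cells, measured 14.5, 23.4 and 20.6 FPKM in WT and 9.19, 9.67 and 11.5 FPKM in MUT. HET, at 16.0, 14.8 and 12.4 FPKM, overlapped WT and lay above MUT. The log2 fold change of MUT over WT was -0.86 (SE 0.17).

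The metallothioneins *Mt2* and *Mt1*, neighbours on chromosome 8 that bind zinc and copper, were both in this group. *Mt2* (94172618 to 94173567) measured 173, 164 and 176 FPKM in WT and 131, 114 and 93.1 FPKM in MUT. *Mt1* measured 145, 127 and 121 FPKM in WT and 104, 95.4 and 77.5 FPKM in MUT. The log2 fold changes were -0.61 (SE 0.16) and -0.51 (SE 0.15). HET spread more widely than either group, from 89.0 to 333 FPKM for *Mt2*, with HET-2 highest for both genes. HET-2 was also the library in which the summed FPKM of 10 liver genes reached 765, against 29.0 to 54.3 in the 6 libraries compared.

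*Hoga1*, a mitochondrial aldolase of hydroxyproline breakdown, was 8.75 to 10.2 FPKM in WT and 6.73 to 7.54 FPKM in MUT. *Glb1l*, a relative of beta-galactosidase, was 9.35 to 11.7 and 7.33 to 8.69 FPKM, and *Clca3a1*, a regulator of chloride conductance, 6.60 to 8.98 and 5.40 to 5.85 FPKM, in WT and MUT. The other two of the 10 are not described here.

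Netrins and their receptors other than *Ntn1* did not separate the groups. Of the 14 listed genes, each found at 1 locus of the table, 6 were tested, 3 with a positive and 3 with a negative log2 fold change (-0.18 to 0.17), and none was without overlap. *Unc5c*, the receptor known from nephron progenitors, measured 20.5, 21.8 and 25.5 FPKM in WT and 22.2, 19.4 and 21.5 FPKM in MUT. *Unc5b*, an endothelial receptor, measured 21.5, 15.4 and 12.6 FPKM in WT and 21.7, 18.7 and 14.9 FPKM in MUT. For both genes the groups overlapped. *Neo1* (neogenin) and *Mcam*, which also bind netrins, were at 24.0 to 35.9 and 32.4 to 41.3 FPKM over the 6 libraries, with log2 fold changes of 0.09 (SE 0.15) and -0.18 (SE 0.12). The remaining tested pair were loci that join *Ntn3* with *Tbc1d24* and *Ntng2* with 6530402F18Rik. *Ntn4* was below the minimum, at 2.37 to 4.41 FPKM in WT and 2.09 to 4.76 FPKM in MUT, and *Dcc* did not exceed 0.40 FPKM in these 6 libraries.

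Gene lists for kidney compartments and pathways were read by how many tested loci had a positive or a negative log2 fold change and by the list's median, beside 48.7% positive and a median of -0.0035 over all loci. Members without overlap stand beside 1.32% of all loci with MUT above WT and 1.34% with MUT below. No member of any list passed the adjusted threshold. For all 32 lists with at least 3 tested loci, the per-library medians of MUT and WT overlapped. The sign of the median held in all 24 alternatives for 13 of them: cortical and medullary stroma, nephron progenitors, proximal tubule, ureteric stalk, macrophages, stress genes, collagens, TGF-beta, Wnt, mitosis, splicing and glycolysis. It turned in at least 1 alternative for every other list.

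**Figure D4:**
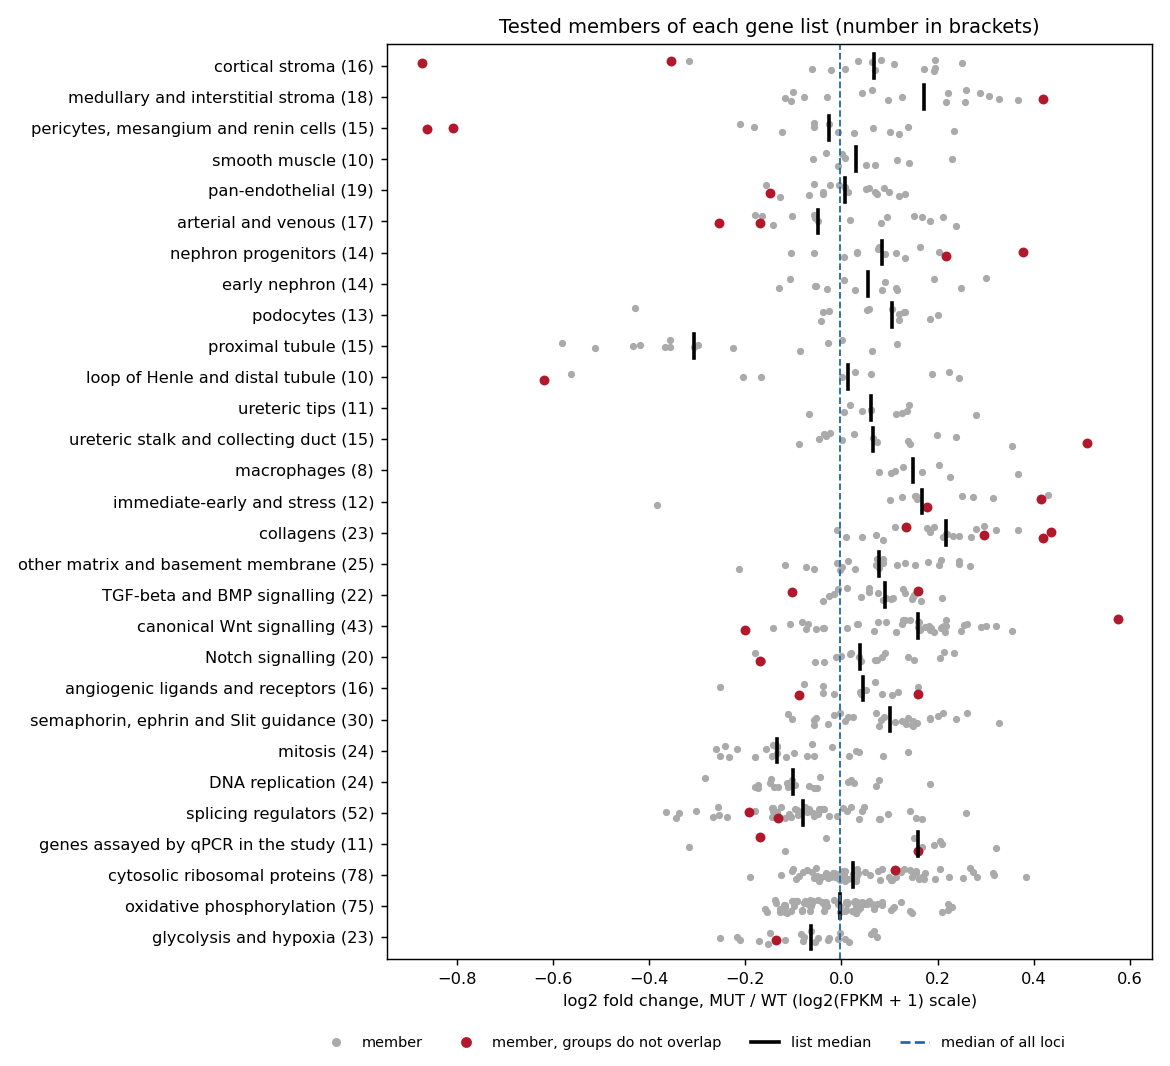
Log2 fold change of MUT over WT for each tested member (points), with list medians (black bars) and the median of all loci (dashed line); red points are members whose MUT and WT libraries do not overlap. The proximal tubule list lies furthest to the left with a median of -0.31, and the collagens lie furthest to the right with a median of 0.22.

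In the cortical stroma list, 11 of 16 tested loci had a positive log2 fold change, with a median of 0.07, and only *Ntn1* and *Foxd1* were without overlap. *Aldh1a2*, which makes retinoic acid, had the highest FPKM of the list, at 159, 181 and 139 in WT and 172, 125 and 179 in MUT. *Tcf21*, a stromal transcription factor, was 148, 152 and 157 FPKM in WT and 137, 184 and 166 FPKM in MUT. The ranges overlapped for both genes. Of the 14 members other than *Ntn1* and *Foxd1*, 11 were positive.

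The medullary and interstitial stroma list had 13 of 18 loci positive and a median of 0.17. *Cdkn1c*, a cell-cycle inhibitor of medullary stroma, was 438, 460 and 494 FPKM in WT and 444, 584 and 500 FPKM in MUT. *Col1a1* (chromosome 11, 94936270 to 94951856), the main fibrillar collagen chain, was the single member without overlap, at 210, 200 and 118 FPKM in WT and 240, 214 and 232 FPKM in MUT. WT-1 and MUT-2 were nearly level, and WT-3 stood far below the other 5. Its log2 fold change was 0.42 (SE 0.22), and HET lay lower, at 143 to 173 FPKM.

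For pericytes, mesangium and renin cells, 9 of 15 loci were negative, with a median of -0.03, and the renin locus and *Akr1b7* were the members without overlap. *Rgs5*, a pericyte marker, measured 47.9, 37.98 and 55.6 FPKM in WT and 46.4, 56.3 and 40.9 FPKM in MUT. Smooth muscle genes had a median of 0.03 over 10 loci, with *Acta2* at 54.7 to 72.1 FPKM in WT and 52.4 to 67.6 FPKM in MUT. The wider mural lists therefore lay near the median of all loci, while renin and *Akr1b7* were at -0.81 and -0.86.

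Endothelial genes were close to balance. The pan-endothelial list had 10 of 19 loci positive and a median of 0.01, whose sign turned under a GC correction, and the arterial and venous list 8 of 17 and a median of -0.05, which ranged from -0.11 to 0.15 over the alternatives and was positive without WT-1, without WT-2 or without MUT-3. *Pecam1*, the junctional protein CD31, measured 42.7, 42.4 and 45.6 FPKM in WT and 40.0, 37.9 and 39.7 FPKM in MUT. Although without overlap, its log2 fold change was only -0.15 (SE 0.11). *Cldn5*, an endothelial claudin, was 70.6 to 81.2 FPKM in WT and 70.1 to 78.9 FPKM in MUT. Of the arterial genes, *Gja5* (connexin 40) measured 8.73, 9.41 and 9.07 FPKM in WT and 7.51, 8.38 and 6.52 FPKM in MUT, and *Hey1*, a Notch target, 32.4, 29.6 and 31.4 FPKM in WT and 29.5, 25.2 and 28.0 FPKM in MUT. Both were without overlap, at log2 fold changes of -0.25 (SE 0.13) and -0.17 (SE 0.12). *Ephb4*, a venous receptor, had 0.18 (SE 0.16) with overlapping groups.

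Nephron progenitor genes had 12 of 14 loci positive and a median of 0.08. *Six2* (chromosome 17, 85684268 to 85688254), which keeps the progenitors undifferentiated, measured 81.2, 87.9 and 57.8 FPKM in WT and 95.5, 89.7 and 107 FPKM in MUT, with 79.4 to 95.6 FPKM in HET. *Hoxa11*, a Hox gene of the metanephros, measured 27.9, 30.0 and 25.5 FPKM in WT and 30.3, 35.3 and 31.9 FPKM in MUT. These were the list's members without overlap, and WT-2 came within 2 FPKM of the lowest MUT library for both. The log2 fold changes were 0.38 (SE 0.17) and 0.22 (SE 0.12). *Cited1*, a marker of the least committed progenitors, overlapped, at 73.4 to 103 FPKM in WT and 79.9 to 121 FPKM in MUT.

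The proximal tubule list was the lowest of the compartments, with 12 of 15 loci negative and a median of -0.31, yet no member was without overlap. *Fxyd2*, the gamma subunit of the sodium pump, measured 142, 157 and 175 FPKM in WT and 89.2, 199 and 104 FPKM in MUT. MUT-1 and MUT-3 lay below every WT library and MUT-2 above every one. The list's median difference from the WT mean stood at -0.53, 0.34 and -0.58 in MUT-1, MUT-2 and MUT-3, respectively, against -0.12 to 0.22 in the WT libraries. HET was divided as well, with HET-3 at -0.81 and HET-1 and HET-2 at -0.06 and 0.04. MUT-1 and HET-3 are the libraries with high *Xist*, and MUT-3 has Y-linked expression. The part of sex-linked expression in these values was not tested.

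Further members are given here, chosen after their values were seen. *Fbp1*, of gluconeogenesis, measured 6.77, 7.66 and 13.8 FPKM in WT and 3.85, 13.9 and 3.11 FPKM in MUT. *Spp2*, a secreted phosphoprotein, measured 15.0, 23.2 and 29.7 FPKM in WT and 9.82, 30.0 and 11.2 FPKM in MUT. *Slc34a1*, the phosphate transporter, measured 37.99, 27.3 and 35.3 FPKM in WT and 28.4, 36.7 and 18.5 FPKM in MUT, so that MUT-1 overlapped WT-2 there.

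Other nephron segments lay nearer to zero. Early nephron genes had 9 of 14 loci positive with a median of 0.06, and podocyte genes 9 of 13 with a median of 0.11. Both medians were negative without MUT-1 or without WT-3, and that of the podocytes also without WT-2. The loop of Henle and distal tubule list had 6 of 10 positive with a median of 0.01, whose sign also turned under a GC correction. Ureteric tip genes had 10 of 11 loci positive with a median of 0.06, negative without MUT-1 or without WT-3, and stalk and collecting duct genes 10 of 15 with a median of 0.07. *Krt19* was the member of the stalk list without overlap, at 0.51 (SE 0.14), whereas *Cdh16*, a cadherin of renal epithelia, stood at 111 to 121 FPKM in WT and 111 to 119 FPKM in MUT.

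Of the markers of other tissues, no adrenal or gonad gene reached the minimum, and the summed FPKM of 11 adrenal genes was 4.66 to 6.28 in WT and 4.03 to 7.07 in MUT. Of the 10 liver genes, *Afp*, the fetal serum protein alpha-fetoprotein, was the member that reached it, at 31.0, 32.3 and 43.5 FPKM in WT and 22.8, 44.3 and 22.6 FPKM in MUT. Its log2 fold change was -0.30 (SE 0.24), and as in the proximal tubule list MUT-1 and MUT-3 lay below every WT library and MUT-2 did not. Urothelium, the lining of the renal pelvis and ureter, had 1 tested gene of 11, *Upk3a*, with a summed FPKM over the list of 18.9 to 28.9 in WT and 25.2 to 39.3 in MUT. The highest value was that of MUT-2. Macrophage genes were positive in 8 of 8 tested loci, with a median of 0.15, and their summed FPKM was 95.9 to 121 in WT and 97.6 to 152 in MUT. The part of these cells in the values above was not tested.

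Of 23 collagens tested, 22 were positive (95.7%, beside 48.7% of all loci), with a median of 0.22. Besides *Col1a1*, the members without overlap were *Col5a2* (25.5 to 27.0 FPKM in WT and 27.1 to 30.5 in MUT), *Col9a1* (3.95 to 4.50 and 5.07 to 6.16) and *Col9a2* (3.14 to 4.10 and 4.28 to 6.02). *Col9a1* and *Col9a2* were under 5 FPKM in every WT library, so they entered through their MUT mean alone. Both are counted in the 22, where their direction was fixed by that entry. *Col3a1* and *Col1a2*, the other abundant fibrillar chains, were at 0.22 (SE 0.15) and 0.37 (SE 0.19) and overlapped. The list's median difference from the WT mean was 0.34, 0.20 and 0.08 in MUT-1 to MUT-3. WT spread further than MUT, from -0.24 in WT-3 to 0.26 in WT-1, and MUT-1 alone lay above that range. Other matrix and basement membrane genes had 19 of 25 positive and a median of 0.08.

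Canonical Wnt signalling genes had 34 of 43 loci positive and a median of 0.16. Without overlap were *Foxq1*, described above, and *Dkk1*, a secreted Wnt antagonist, at 18.4, 15.8 and 18.1 FPKM in WT and 14.6, 15.0 and 15.4 FPKM in MUT (log2 fold change -0.20, SE 0.11). The list's median difference from the WT mean was 0.27, 0.11 and 0.01 in MUT-1 to MUT-3 and ran from -0.18 (WT-3) to 0.24 (WT-1) in WT, so that MUT-1 lay above every WT library and MUT-2 and MUT-3 within their range. TGF-beta and BMP genes had 17 of 22 positive and a median of 0.09, with *Tgfb1*, the ligand, at 12.9 to 15.52 FPKM in WT and 15.8 to 17.3 FPKM in MUT, and *Smad2*, a signal transducer, at 13.1 to 14.3 and 12.2 to 12.8 FPKM. Notch genes had 13 of 20 positive and a median of 0.04.

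Angiogenic ligands and receptors had 10 of 16 loci positive and a median of 0.05. *Pdgfc* was the member with all MUT above WT (19.9 to 24.4 against 24.9 to 25.5 FPKM), and *Pdgfa*, a related growth factor, the member with all MUT below (31.5 to 31.8 against 29.3 to 30.2 FPKM). Semaphorin, ephrin and Slit guidance genes, the families that steer axons and vessels alongside netrins, had 22 of 30 positive and a median of 0.10, and none was without overlap.

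Mitosis genes had 19 of 24 loci negative with a median of -0.13, DNA replication genes 18 of 24 with -0.10, and splicing regulators 39 of 52 with -0.08. Within the lists, MUT-2 was the low library, at -0.34 for mitosis and -0.31 for replication, while MUT-3 was above the WT mean in both. *Mbnl1* and *Clk3*, regulators of alternative splicing, were the splicing genes without overlap. *Mbnl1* measured 17.4, 17.3 and 21.7 FPKM in WT and 16.8, 15.2 and 16.8 FPKM in MUT, and *Clk3* 24.8, 25.98 and 26.7 FPKM in WT and 23.9, 22.5 and 24.1 FPKM in MUT.

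Glycolysis and hypoxia genes had 18 of 23 loci negative and a median of -0.06, with the glucose transporter *Slc2a1* at 32.7 to 34.5 FPKM in WT and 29.8 to 31.6 FPKM in MUT. Oxidative phosphorylation genes (75 loci, median -0.0035) and ribosomal proteins (78 loci, median 0.02) were centred near zero, and the sign of the former turned under median-ratio rescaling. *Rplp2* was the ribosomal gene without overlap, at a log2 fold change of 0.11 (SE 0.15). Immediate-early and stress genes, which respond to handling of tissue, had 11 of 12 positive and a median of 0.17. Of these, *Jund* measured 46.0, 46.2 and 37.7 FPKM in WT and 61.0, 57.2 and 55.6 FPKM in MUT, *Btg2* 11.2 to 12.5 and 12.8 to 13.9 FPKM, and *Jun* was highest in MUT-1, at 57.3 FPKM against 19.7 to 36.8 in the other 5 libraries.

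The 12 genes that the study assayed by qPCR were chosen by it on samples of this series, so their direction is not independent evidence. Of the 11 tested, 7 were positive and 4 negative, with a median of 0.16 that was -0.04 without WT-3, and *Tgfb1* and *Hey1* were without overlap. *Col15a1*, a basement membrane collagen, measured 27.4, 19.2 and 17.1 FPKM in WT and 32.99, 25.7 and 21.4 FPKM in MUT. *Col4a1* measured 230, 182 and 117 FPKM in WT and 251, 180 and 161 FPKM in MUT. *Crabp1*, a retinoic acid binding protein, measured 23.4, 38.01 and 33.8 FPKM in WT and 23.2, 20.6 and 31.8 FPKM in MUT. The groups overlapped for all of these.

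Because WT-1 lay close to MUT-1 and WT-2 close to MUT-3 over all loci, the differences within these pairs were also read. The pairs were chosen after the data were seen, each holds 1 library per genotype, and no test is given. A log2 difference of at least 0.3 in the same direction in both pairs was found for 26 loci with MUT higher (0.258%) and 70 with MUT lower (0.693%), and 14 loci passed it in opposite directions. Small RNA loci made up 1 of the 26 and 10 of the 70. Of the 25 other loci with higher values, 23 were also higher in MUT-2 than in WT-3, beside 47.8% of all loci. Some of the 25, among them *Nrtn*, *Rrad*, *Sprr2g* and *Pllp*, were under 5 FPKM in every WT library. They entered through their MUT mean alone, which includes MUT-2. Their direction in MUT-2 is thus partly fixed by the FPKM minimum, and the 23 are no independent check. Of the 60 other loci with lower values, 29 were also lower in MUT-2, which is near the 52.0% of all loci.

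*Ntn1* differed by -1.20 between MUT-1 and WT-1, by -1.31 between MUT-3 and WT-2, and by -0.11 between the remaining pair, MUT-2 and WT-3. The renin locus differed by -0.98, -1.08 and -0.36 in the same order, and *Foxd1* by -0.43, -0.44 and -0.19. In all 3 genes the remaining pair showed the smallest difference. *Akr1b7*, at -0.60, -0.97 and -1.02, and *Sprr2f*, at 0.93, 0.71 and 1.03, did not follow this order.

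All 10 named loci with higher values in MUT were among the 26. They were chosen for having all MUT above all WT, so their direction in the pairs was fixed by that choice. The tight-junction claudins *Cldn3*, *Cldn4* and *Cldn7*, chosen after their values were seen, were also among the 26. *Cldn10* went the other way, at -0.66 and -0.41 in the close pairs, and *Cldn5* stood at -0.01 and -0.04. *Cldn4* measured 34.2, 34.8 and 29.0 FPKM in WT and 49.6, 41.1 and 47.8 FPKM in MUT, with no overlap. *Cldn7* measured 53.7, 60.4 and 47.2 FPKM in WT and 75.9, 64.6 and 78.7 FPKM in MUT. *Cldn3* overlapped through MUT-2, at 21.2 FPKM, against 16.6 to 27.7 FPKM in WT.

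Of the 15 proximal tubule genes tested, 14 were lower in MUT in both close pairs (93.3%, beside 22.9% of all loci), and 8 of them by at least 0.3 in each. The medians were -0.39 for MUT-1 minus WT-1 and -0.59 for MUT-3 minus WT-2, but 0.05 for MUT-2 minus WT-3, where 5 of 15 were lower, beside 52.0% of all loci. The 8 included *Fxyd2*, *Fbp1*, *Spp2*, *Slc34a1*, *Slc22a6*, *Slc3a1* and *Slc27a2*, most of them transporters and enzymes of the maturing tubule. *Slc12a1*, the salt cotransporter of the loop of Henle, was also lower in both pairs, with log2 differences of -0.83 and -0.67, and stood at -0.18 in MUT-2 minus WT-3. Its list, the loop of Henle and distal tubule, had 8 of 10 loci lower in both close pairs (80%), with medians of -0.11 and -0.05. Lists with about 1 locus in 2 lower in both pairs were podocytes (7 of 13), pericytes, mesangium and renin cells (8 of 15), arterial and venous genes (9 of 17), pan-endothelial genes (10 of 19) and early nephron (7 of 14). Their medians in the close pairs ran from -0.18 to -0.0056, nearer to zero than those of the proximal tubule.

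For nephron progenitor genes, 11 of 14 were higher in both close pairs (beside 31.3% of all loci) and 0 were lower in both. The medians were 0.10, 0.12 and 0.07 in the 3 pairs. Of the collagens, 12 of 23 were higher in both close pairs, with medians of 0.11 and 0.08, while the median in MUT-2 minus WT-3 was 0.51. The medians of the Wnt list were likewise 0.05 and 0.02 in the close pairs and 0.38 in the remaining pair. For mitosis, 0.04 and -0.01 stood beside -0.41, and for splicing regulators 0.03 and 0.03 beside -0.30. In these 4 lists the difference between MUT-2 and WT-3 was the largest of the 3. These 2 libraries are not a close pair. Their median absolute log2 difference over all loci was 0.202, against 0.050 for MUT-1 with WT-1 and 0.053 for MUT-3 with WT-2. The part of this wider distance in the list values was not tested.

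**Figure D5:**
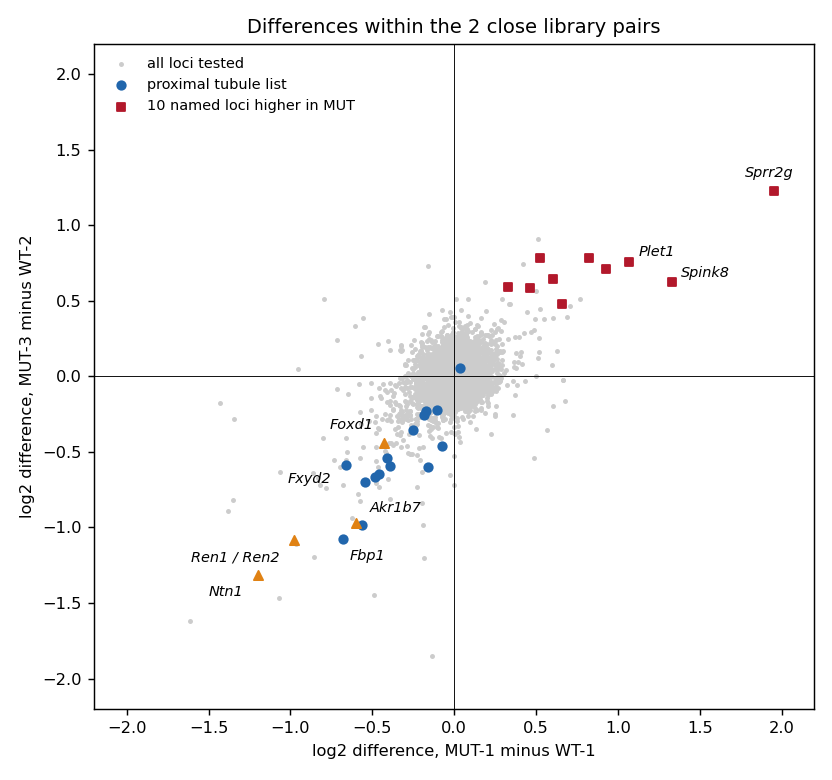
Log2 difference between MUT-3 and WT-2 against that between MUT-1 and WT-1 for each locus tested, with 48 loci outside the axis limits of 2.2. The proximal tubule genes (blue), apart from 1, lie in the lower left, with *Ntn1*, the renin locus, *Foxd1* and *Akr1b7* (orange). The 10 named loci with higher values in MUT (red) lie in the upper right. The red and orange loci are without overlap between MUT and WT, which by itself puts them on these sides.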

How the data were processed

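A set of 3 kidneys per genotype was sequenced from TruSeq Stranded mRNA libraries of TRIzol-extracted RNA. Per the labels and the study's methods, the deposited FPKM were made by the authors with STAR alignment to mm10, Cufflinks assembly and Cuffdiff; their versions are not given in the sources used here. The deposited table also holds the authors' mean FPKM per genotype, which were not used. FPKM are scaled to library size and transcript length, so read depth is unknown and no counting error is given. Precision rests on 3 libraries per group, and each SE is limma's moderated value. That value also draws on the spread of other loci of similar level, with a median of 9.93 total degrees of freedom. Of the loci, 355 join several gene names, and members of a list found only at such a locus were counted once there.

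Loci whose mean reached 5 FPKM in MUT or WT were tested with limma (version 3.58.1, R 4.3.3; lmFit, eBayes with trend) on the log2(FPKM + 1) scale, 3 libraries against 3, two-sided, with Benjamini-Hochberg adjustment and a threshold of 0.05. The steps were tested on simulated data. The members and gene lists were chosen with earlier results of these data known, so lists are described by counts and medians. Genes named are *Ntn1*, *Foxd1*, netrins and receptors, the qPCR genes, the 10 loci with the smallest p in each direction without overlap, and, from each list, the 2 highest-FPKM members and up to 4 without overlap; exceptions are marked, and a few loci under this rule are not reported here. GENCODE M21 (GRCm38) gave transcript GC content and length for 95.7% of loci. A locus was placed from the deposited coordinates, written 1-based. Python 3.11.15 was used for tables and figures. Alternatives were other pseudocounts, FPKM minimums, scalings, covariates and library sets.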

Additional observations from a re-analysis of the deposited data

How the results depend on the processing

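In 24 alternatives, the number of loci past the adjusted threshold stayed at 0 under every change of pseudocount, FPKM minimum, scaling, trend, GC correction or locus set. It was also 0 with the replicate number as a block. It ranged from 0 to 32 when libraries were left out, with 3 loci without WT-1 (*Snora3*, *Akr1b7*, *Sprr1a*), 1 without MUT-2 (*Snora68*), 1 without WT-2 (*Snord35a*), and 32 without WT-2 and MUT-3 together. Among those 32 were *Sprr2f*, *Sprr2g*, *Spink8*, *Sprr1a*, *Xist*, 4 Y-linked genes and many small RNA loci. Without WT-1 and MUT-1 together it was 0. These 2 joint omissions, the correction for GC content and length together, and the set without small RNA loci were chosen after the data were seen. In every fit limma's moderation supplies part of the error, also with 2 libraries left in a group.

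At an unadjusted p under 0.05, loci higher and lower in MUT numbered 73 and 80 at a minimum of 1 FPKM, 17 and 26 at 10 FPKM, and 234 and 286 with no minimum, where the number of loci tested differs. After correction for GC content and length they were 84 and 54. With libraries left out they ranged from 22 to 209 and from 14 to 168. Loci without overlap, above and below, numbered 231 and 249 at 1 FPKM, 93 and 83 at 10 FPKM, and 440 and 580 with no minimum. With fewer libraries to separate, they ranged from 288 to 1330 and from 234 to 1423.

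The replicate block gave 88 and 113 loci, and with the GC correction 134 and 117, with 0 past the adjusted threshold in both. Deviations of same-numbered MUT and WT libraries correlated at 0.55, -0.26 and -0.03 across loci, so the numbers did not mark pairs throughout. Another matching, MUT-1 with WT-1, MUT-3 with WT-2 and MUT-2 with WT-3, gave 0.55, 0.49 and 0.27. This other matching was not fitted as a block, so the number of loci past the threshold under it is unknown. The labels and methods state no block, and none was used in the main fit.

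Of 72 named loci, 9 reversed direction in at least 1 alternative. Median-ratio rescaling gave log2 fold changes of 0.0046 for *Aldh1a2*, 0.020 for *Cldn5* and 0.0028 for *Cdh16*. The GC correction gave 0.0059 for *Aldh1a2* and 0.0029 for *Acta2*, the same with the block, and GC with length gave 0.0066 for *Aldh1a2*. With libraries left out, values ranged from -0.028 to 0.18 for *Neo1*, -0.12 to 0.14 for *Aldh1a2*, -0.015 to 0.20 for *Tcf21*, -0.12 to 0.15 for *Rgs5*, -0.053 to 0.047 for *Cldn5*, -0.057 to 0.27 for *Cited1*, -0.055 to 0.0089 for *Cdh16*, -0.12 to 0.087 for *Acta2* and -0.074 to 0.41 for *Col4a1*. The cause was not tested. Of 32 list medians, 13 kept their sign throughout, among them proximal tubule (-0.52 to -0.15), collagens (0.07 to 0.32), canonical Wnt signalling (0.03 to 0.26), medullary and interstitial stroma (0.05 to 0.25) and mitosis (-0.22 to -0.02).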
